A study of Homo sapiens with 18 samples.

Results

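Glycolysis and the response to low oxygen were followed through 41 genes, chosen by name from textbook membership of these pathways, out of 58302 genes in the expression table. They comprise 2 membrane transporters, 15 glycolytic enzymes, 3 enzymes that set the fate of pyruvate, 2 regulators of phosphofructokinase, 3 subunits of the hypoxia-inducible factors (HIF), 3 oxygen sensors and 13 further HIF target genes. Expression could be tested for 39 of them. EGLN3 and CA12 were listed below the required level of 1 FPKM (fragments scaled by transcript length and library depth).

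The cells were PANC-1, an established human pancreatic ductal adenocarcinoma line, carrying either a control short hairpin RNA (shCtrl), which the study's methods list as non-targeting, or a hairpin against NAT10 (shNAT10), delivered by lentivirus. Which hairpin sequence against NAT10 was used is not given in the sources used here. NAT10 is the acetyltransferase that writes N4-acetylcytidine (ac4C) on RNA. RNA-seq comprised 3 libraries per group. acRIP-seq, in which RNA fragments are pulled down with an antibody to ac4C and set against input RNA, comprised 3 immunoprecipitated libraries per group and was deposited as 1 pooled list of peaks per group. No library was labelled as hypoxic, so every level below belongs to cells as they were grown. The labels do not say whether libraries of a group came from separate cultures or whether the lines were single clones. The p-values therefore measure only the spread between these libraries, and 1 shCtrl line was compared with 1 shNAT10 line.

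Glycolysis splits glucose into pyruvate, which lactate dehydrogenase turns into lactate for export or which enters the mitochondria as fuel. Many tumour cells run the pathway at a high rate even with oxygen present. When oxygen falls, prolyl hydroxylases stop marking HIF alpha subunits for destruction by the VHL ubiquitin ligase, and the stabilised alpha subunit pairs with ARNT and binds a short core sequence near genes for glucose uptake, glycolysis, pH control, mitophagy and collagen processing.

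NAT10 itself was listed at 31.6, 27.7 and 28.6 FPKM in the shCtrl libraries and at 7.92, 8.43 and 7.90 FPKM in the shNAT10 libraries. The groups did not overlap, the log2 fold change was -1.84 ± 0.08 (SE, adjusted p = 3.85e-05, limma) and the exact permutation test gave p = 0.1, the smallest that 3 against 3 libraries allow. Depth recovered from the steps between low FPKM values lay between 15831726 and 23521735 reads per library. The SD of a library's log2 difference from the others of its group was highest for the second shCtrl library (0.465) and the first (0.41), against 0.288 to 0.325 for the other 4 libraries. These differences ran with transcript length in opposite directions (r = -0.235 for the second and 0.207 for the first, across genes). Leaving out either library gave calls to genes not called in the main fit, some of which other settings also called. These are given with the genes. The 8 ductal epithelial markers all reached 1 FPKM, and their summed level was 2835 to 3793 FPKM in shCtrl and 1545 to 1725 FPKM in shNAT10. KRT8, KRT18 and KRT19 make up most of that sum and were called lower with KRT7, whereas EPCAM (mean 4.87 FPKM in shCtrl and 22.6 FPKM in shNAT10) and SOX9 were called higher and CDH1 and MUC1 were not called. The 4 acinar, 3 endocrine and 3 endothelial markers all stayed below 1 FPKM in every library, and among the immune and fibroblast markers CD14 and COL1A1 alone exceeded it. The part of these marker shifts in the results was not tested, and in bulk RNA fewer cells of a kind and less RNA per cell cannot be told apart.

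Of the 39 tested genes, 12 were called higher and 9 lower in shNAT10 at an adjusted p under 0.05. Over all 12982 genes tested, 20.8% were called higher and 21.2% lower, and the median log2 fold change was 0.07 for the 39 genes and -0.01 for all genes. All 3 shNAT10 libraries lay above all shCtrl libraries for 14 of the 39 genes and below them for 11, where 27.9% and 28.6% of all tested genes did so. All 21 called genes were among these. The direction was thus mixed, and 18 tested genes were not called. The calls of 12 genes, 6 higher and 6 lower, held under each alternative that tested them, which were 17 in all. Leaving out the third shCtrl library or any 1 shNAT10 library brought the genes called higher down to 7, and the genes called lower numbered 6 to 10 when single libraries were left out. Quantile normalization called 18 higher and 7 lower, and over all genes rescaling each library to one total of length-scaled transcripts (TPM) moved the calls from 2699 higher and 2751 lower to 3355 higher and 2075 lower.

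**Figure D1:**
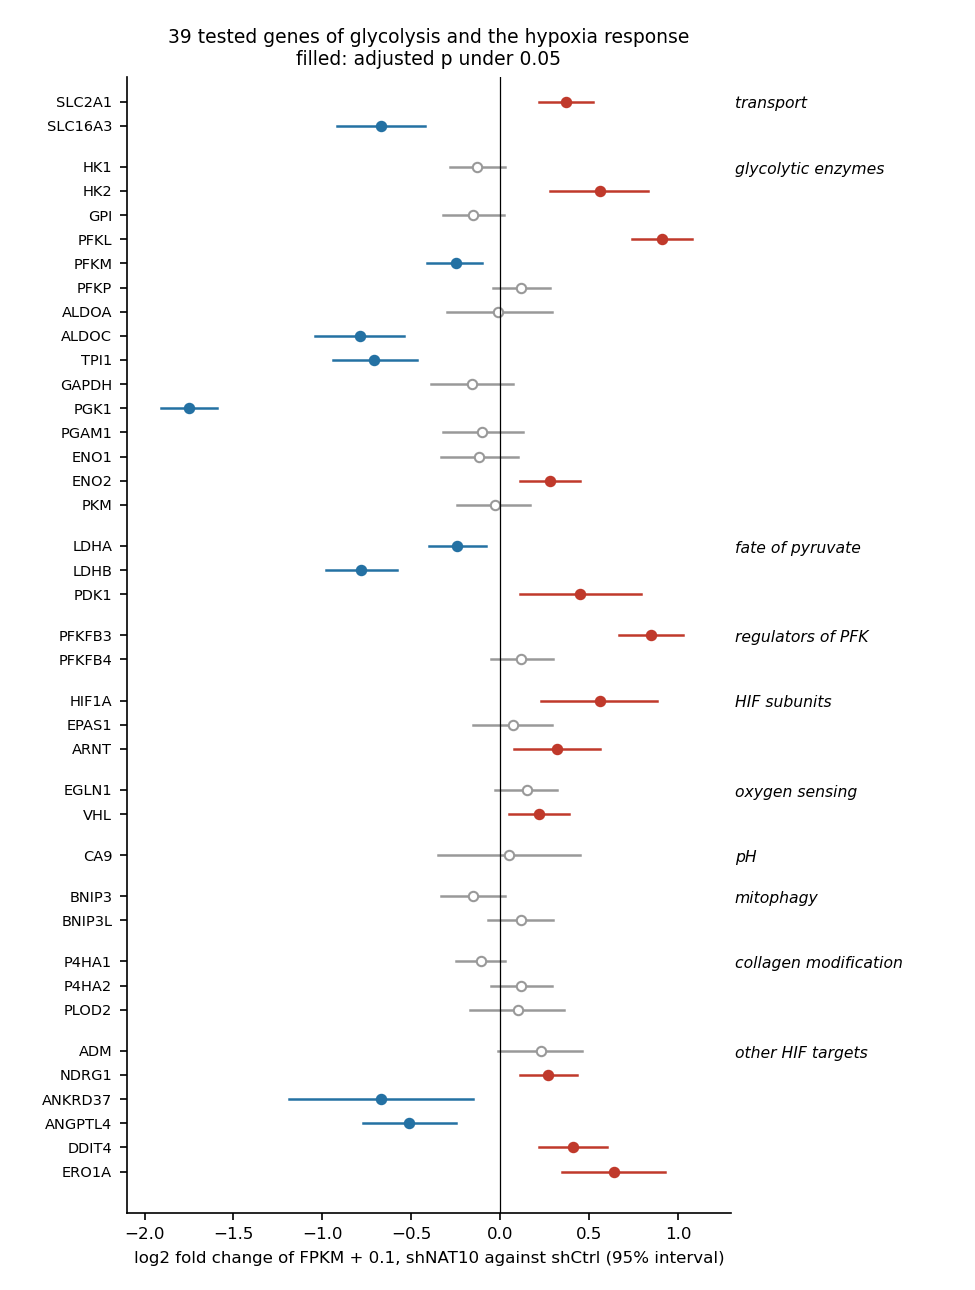
Log2 fold change of FPKM + 0.1 in shNAT10 against shCtrl, with its 95% interval, for the 39 tested genes grouped by role on the vertical axis. Filled points passed an adjusted p under 0.05 (12 higher in red, 9 lower in blue), and PGK1 at -1.75 is the single gene beyond 1 in either direction.

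PGK1, phosphoglycerate kinase, which makes the first ATP of the payoff phase of glycolysis, fell the most. Its level was 216.9, 242.1 and 233.8 FPKM in the shCtrl libraries and 66.1, 71.9 and 67.7 FPKM in the shNAT10 libraries. The shNAT10 libraries lay far below every shCtrl library, at 0.297 of the shCtrl mean. The log2 fold change was -1.75 ± 0.07 (SE, adjusted p = 3.84e-05, limma), and it stayed between -1.86 and -1.64 over the 17 alternatives. PGK1 was the single gene of the 39 called lower by more than 1 on the log2 scale, a call that 3.57% of all tested genes received. By the size of the fall it stood at place 89 of all genes tested and at place 2 of the 1149 genes with a mean of at least 50 FPKM. The gene (ENSG00000102144) lies on chromosome X at chrX:77910739-78129296, plus strand, GRCh38, and its 1 annotated pseudogene in the table reached at most 0.236% of its level.

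Among the listed transporters, the glucose carrier SLC2A1 rose and the lactate carrier SLC16A3 fell. SLC16A3, the proton-coupled lactate exporter MCT4, was listed at 114.0, 149.4 and 128.3 FPKM in shCtrl and at 82.9, 85.9 and 76.1 FPKM in shNAT10. Its log2 fold change was -0.67 ± 0.11 (SE, adjusted p = 0.00307) and the groups did not overlap. SLC2A1, the glucose transporter GLUT1, ran from 41.1 to 42.2 FPKM in shCtrl and from 51.8 to 56.7 FPKM in shNAT10, a log2 fold change of 0.37 ± 0.06 (SE, adjusted p = 0.00374).

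HK2 and PFKL, at early committed steps of glycolysis, rose. Hexokinase traps glucose in the cell as glucose-6-phosphate. HK2, the inducible hexokinase bound to mitochondria, was listed at 19.1, 14.3 and 18.1 FPKM in shCtrl and at 23.8, 25.8 and 25.8 FPKM in shNAT10, with a log2 fold change of 0.56 ± 0.12 (SE, adjusted p = 0.00883). HK1, its more abundant housekeeping relative, gave 52.0, 54.8 and 50.7 FPKM in shCtrl against 47.4, 50.3 and 46.5 FPKM in shNAT10. HK1 was lower in every shNAT10 library but its log2 fold change of -0.13 (95% interval -0.28 to 0.03, adjusted p = 0.158) did not pass in the main fit. The length and GC correction alone called HK1 lower, at -0.14 with an adjusted p of 0.0285. GPI, which isomerises glucose-6-phosphate, was not called either (-0.15, 95% interval -0.32 to 0.02), but without the first shCtrl library it was -0.21 with an adjusted p of 0.0355. Under the length and GC correction GPI was also called lower, at -0.18 with an adjusted p of 0.0391.

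Phosphofructokinase commits sugar to glycolysis and is built from liver, muscle and platelet subunits, which moved apart. PFKL, the liver subunit, was listed at 9.60, 10.5 and 9.69 FPKM in shCtrl and at 18.96, 19.3 and 17.8 FPKM in shNAT10. Each shNAT10 library held more than any shCtrl library, 1.884 times as much by the means, and the log2 fold change was 0.91 ± 0.07 (SE, adjusted p = 0.000208). PFKM, the muscle subunit, gave 25.8, 26.0 and 24.3 FPKM in shCtrl and 21.4, 20.4 and 22.0 FPKM in shNAT10, without overlap (-0.25 ± 0.07, SE, adjusted p = 0.0212), a call kept in 12 of the 17 alternatives.

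PFKP, the platelet subunit and the most abundant of the set, was listed at 165.4, 180.9 and 164.3 FPKM in shCtrl and at 190.1, 187.8 and 175.9 FPKM in shNAT10. These groups overlapped and the log2 fold change of 0.12 (95% interval -0.04 to 0.28, adjusted p = 0.209) did not pass. Without the second shCtrl library it was 0.16, with an adjusted p of 0.0257. Quantile normalization, TPM scaling and the length and GC correction also called PFKP higher, at 0.21, 0.23 and 0.26 (adjusted p = 0.00925, 0.0118 and 0.00169). PFKFB3, which makes the allosteric activator of phosphofructokinase fructose-2,6-bisphosphate, stood at 8.83, 8.05 and 9.21 FPKM in shCtrl and at 15.2, 16.3 and 15.8 FPKM in shNAT10. It rose in every shNAT10 library (log2 fold change 0.85 ± 0.08, SE, adjusted p = 0.00032), the second largest rise of the 39 genes after PFKL. PFKFB4, a relative of the same double function, was listed at 40.7, 36.8 and 42.0 FPKM in shCtrl and at 42.2, 45.6 and 42.3 FPKM in shNAT10. Its shNAT10 libraries lay just above the shCtrl libraries, and the log2 fold change of 0.12 (95% interval -0.05 to 0.30, adjusted p = 0.229) was not called.

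ALDOC, TPI1 and, as above, PGK1 fell in the middle of the pathway. Aldolase cleaves fructose-1,6-bisphosphate, and its brain form ALDOC was listed at 50.8, 67.4 and 58.6 FPKM in shCtrl against 32.9, 35.5 and 33.2 FPKM in shNAT10. The groups stood clear of each other (log2 fold change -0.79 ± 0.11, SE, adjusted p = 0.00155). ALDOA, the main aldolase, gave 718.0, 1008 and 818.5 FPKM in shCtrl and 848.8, 864.6 and 798.7 FPKM in shNAT10, which overlap, and its log2 fold change was -0.01 (95% interval -0.30 to 0.29, adjusted p = 0.977). The gene AC093512.2 shares 42.3% of the exon bases of ALDOA on the same strand, so its level is uncertain. TPI1, triosephosphate isomerase, was listed at 457.1, 583.3 and 484.1 FPKM in shCtrl and at 314.7, 318.8 and 296.6 FPKM in shNAT10. No shNAT10 library came near a shCtrl library, and the log2 fold change was -0.71 ± 0.10 (SE, adjusted p = 0.0018).

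GAPDH, the most abundant of the 39 genes and a common reference in RNA assays, was listed at 2093, 2694 and 2356 FPKM in shCtrl and at 2129, 2145 and 2085 FPKM in shNAT10. The second shCtrl library read highest, the groups overlapped, and the log2 fold change was -0.16 (95% interval -0.39 to 0.07, adjusted p = 0.234). Without the first shCtrl library GAPDH was called lower, at -0.25 with an adjusted p of 0.0418. The direction of GAPDH, ALDOA, ENO1 and PKM depended on scaling, since quantile normalization called all 4 higher, at 0.14, 0.25, 0.13 and 0.17 on the log2 scale. PGAM1, phosphoglycerate mutase, ranged from 116.6 to 145.6 FPKM in shCtrl and from 115.0 to 129.2 FPKM in shNAT10 and was not called (-0.10, 95% interval -0.32 to 0.13).

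Enolase makes phosphoenolpyruvate, and ENO1, its main form here, was listed at 1508, 1834 and 1567 FPKM in shCtrl and at 1546, 1527 and 1444 FPKM in shNAT10. Its groups overlapped (-0.12, 95% interval -0.33 to 0.10, adjusted p = 0.339). ENO2, the neuronal form, gave 23.3, 24.3 and 24.6 FPKM in shCtrl and 27.5, 31.4 and 28.8 FPKM in shNAT10. All 3 shNAT10 libraries were higher, and ENO2 was called at a log2 fold change of 0.28 ± 0.07 (SE, adjusted p = 0.0209), which 14 of the 17 alternatives kept. PKM, pyruvate kinase, ranged from 1050 to 1275 FPKM in shCtrl and from 1077 to 1130 FPKM in shNAT10 and was not called (-0.03, 95% interval -0.24 to 0.17).

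**Figure D2:**
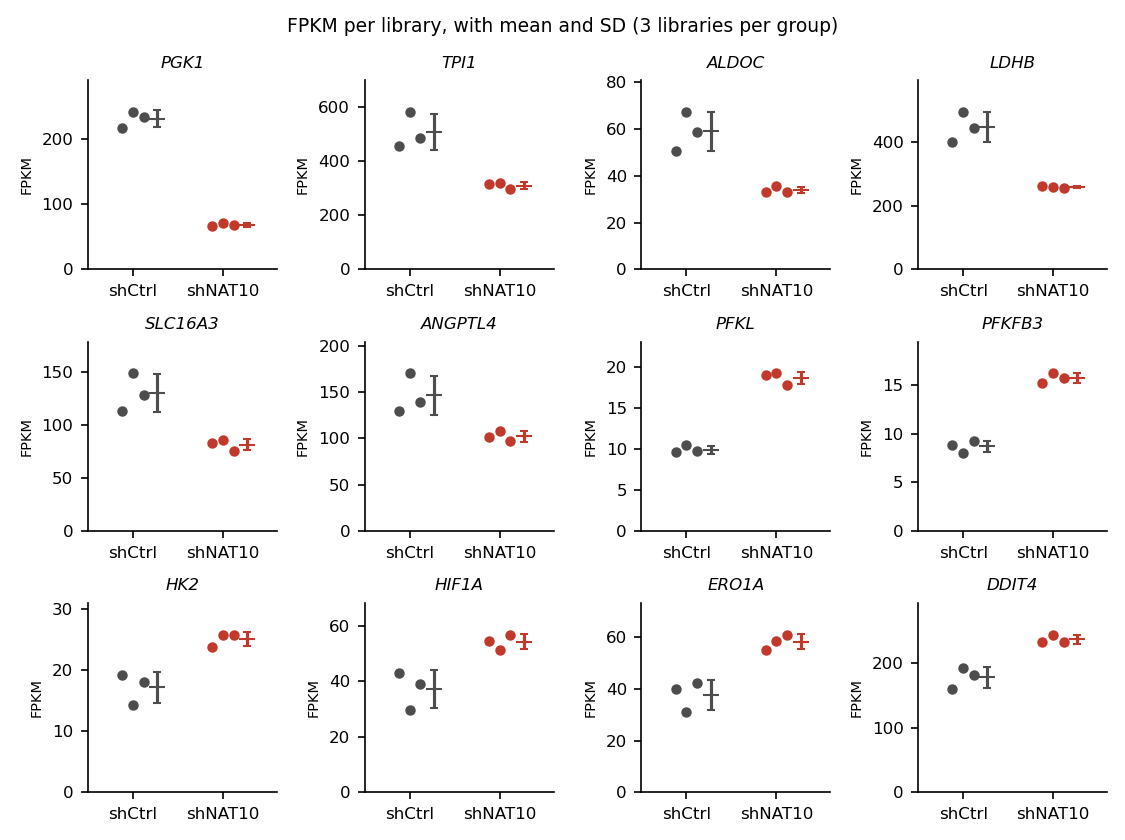
FPKM of 12 genes in each of the 3 shCtrl (grey) and 3 shNAT10 (red) libraries on axes that start at 0, with the mean and SD beside the points. PGK1, TPI1, ALDOC, LDHB, SLC16A3 and ANGPTL4 lie lower in every shNAT10 library, and PFKL, PFKFB3, HK2, HIF1A, ERO1A and DDIT4 lie higher in every one.

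Because FPKM is scaled by transcript length, the listed genes of each step can be summed and the steps compared within a library. The sums leave out ENO3, an enolase gene outside the list, with means of 20.4 FPKM in shCtrl and 16.5 FPKM in shNAT10. ENO3 was called lower at -0.30 (adjusted p = 0.046, limma). PGK1, the only gene of the phosphoglycerate kinase step measured here, was the fifth lowest of 11 steps in each shCtrl library, above hexokinase, phosphoglycerate mutase, glucose-6-phosphate isomerase and phosphofructokinase. In each shNAT10 library PGK1 was the lowest, at 66.1 to 71.9 FPKM, close below hexokinase at 71.1 to 76.0 summed FPKM. Ranks of steps this close are uncertain. They rest on 1 length per gene, the longest annotated transcript, which has 4887 bases for PGK1. The order of the other steps shifted little, with glyceraldehyde-3-phosphate dehydrogenase first in all 6 libraries. The summed levels fell without overlap for triosephosphate isomerase (ratio of means 0.61), phosphoglycerate kinase (0.297) and lactate dehydrogenase (0.787), and overlapped between groups for the other 8 steps, with ratios from 0.89 to 1.093.

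**Figure D3:**
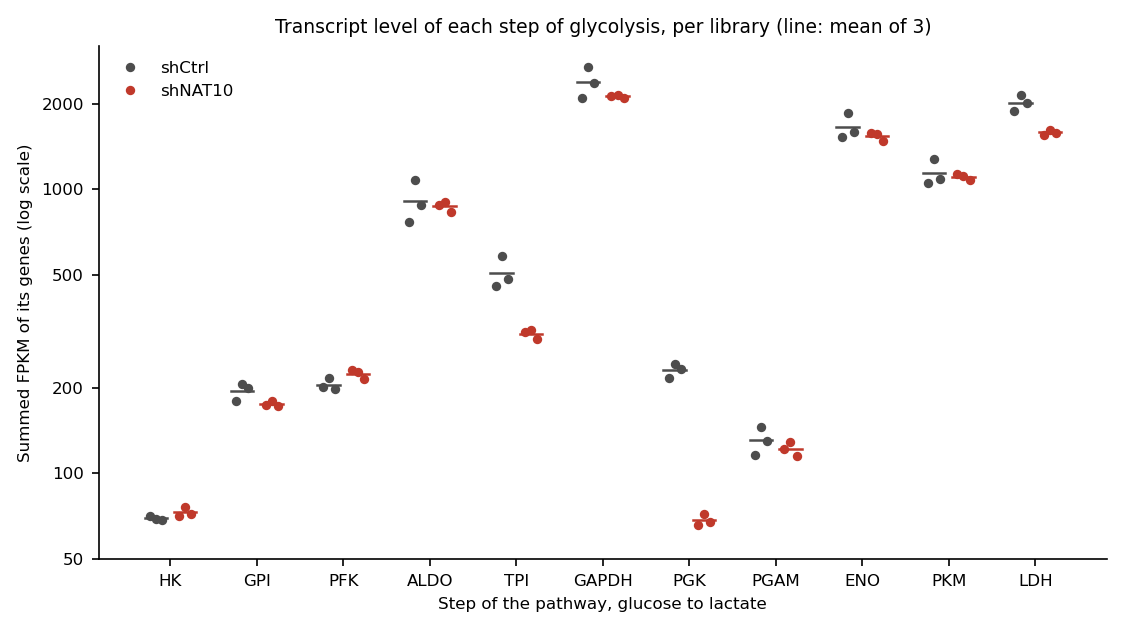
Summed FPKM of the listed genes of each of 11 steps, from hexokinase (HK) to lactate dehydrogenase (LDH), on a log axis, with 3 points per group and a line at the mean. Phosphoglycerate kinase drops from the fifth lowest in shCtrl to lowest in shNAT10, while enolase, pyruvate kinase and glyceraldehyde-3-phosphate dehydrogenase points of the groups overlap.

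Lactate dehydrogenase interconverts pyruvate and lactate as tetramers of LDHA and LDHB subunits. LDHB was listed at 402.4, 496.6 and 444.5 FPKM in shCtrl and at 262.4, 259.3 and 257.5 FPKM in shNAT10. The shNAT10 libraries clustered tightly below the shCtrl libraries, with a log2 fold change of -0.78 ± 0.09 (SE, adjusted p = 0.000663). AC010197.2 shares 33.4% of the exon bases of LDHB on the same strand, which leaves its exact level uncertain. LDHA, the more abundant subunit, gave 1477, 1652 and 1562 FPKM in shCtrl and 1292, 1351 and 1324 FPKM in shNAT10. It was called lower at -0.24 ± 0.07 (SE, adjusted p = 0.0288), but 10 of the 17 alternatives kept that call and quantile normalization gave 0.04. PDK1, a kinase that shuts pyruvate dehydrogenase and so keeps pyruvate out of the mitochondria, ranged from 4.15 to 6.06 FPKM in shCtrl and from 6.98 to 7.44 FPKM in shNAT10. Its rise of 0.45 ± 0.14 (SE, adjusted p = 0.0424) was called in 9 of the 17 alternatives. Its sister genes PDK2 and PDK3 were called lower, at -0.71 and -0.37 (adjusted p = 0.00155 and 0.0216, limma), and PDK4 was not called. By the means PDK2 stood at 14.0 FPKM in shCtrl and 8.46 FPKM in shNAT10.

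Relative amounts of sister genes within a library do not depend on library scaling, and 8 such shares of summed FPKM were compared. HK2 made up 26.9%, 20.7% and 26.3% of HK1 and HK2 together in shCtrl and 33.4%, 33.9% and 35.7% in shNAT10. PFKL went from 4.83% ± 0.06 (SD, n = 3) of the phosphofructokinase genes to 8.32% ± 0.13 (SD, n = 3), and PFKM from 12.35% ± 0.47 (SD, n = 3) to 9.49% ± 0.63 (SD, n = 3). Both changes were larger than the spread between libraries, while PFKP kept the bulk at 82.83% ± 0.44 in shCtrl and 82.19% ± 0.57 in shNAT10 (SD, n = 3), with overlapping groups.

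LDHB supplied 22.23% ± 0.85 (SD, n = 3) of lactate dehydrogenase in shCtrl and 16.42% ± 0.41 (SD, n = 3) in shNAT10. ALDOC fell from 6.52% ± 0.22 to 3.89% ± 0.14 of aldolase, and ENO2 rose from 1.46% ± 0.13 to 1.90% ± 0.14 of ENO1 and ENO2 together (SD, n = 3). EPAS1 supplied 40.77% ± 1.99 of HIF1A and EPAS1 together in shCtrl and 32.90% ± 0.91 in shNAT10 (SD, n = 3). For 7 of the 8 shares every library of one group lay on one side of the other group. The two-sided exact permutation test gave p = 0.1 for each of these 7, the smallest value that 3 against 3 allows (adjusted p = 0.114 over the 8 shares), and p = 0.3 for PFKP. The shares rest on 1 length per gene, the longest annotated transcript, and counted as reads rather than per length the PFKL share rose by 6.46 percentage points instead of 3.49. Counted as reads, the PFKP share changed by -2.75 points instead of -0.64 and its groups no longer overlapped, so all 8 shares were then apart.

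**Figure D4:**
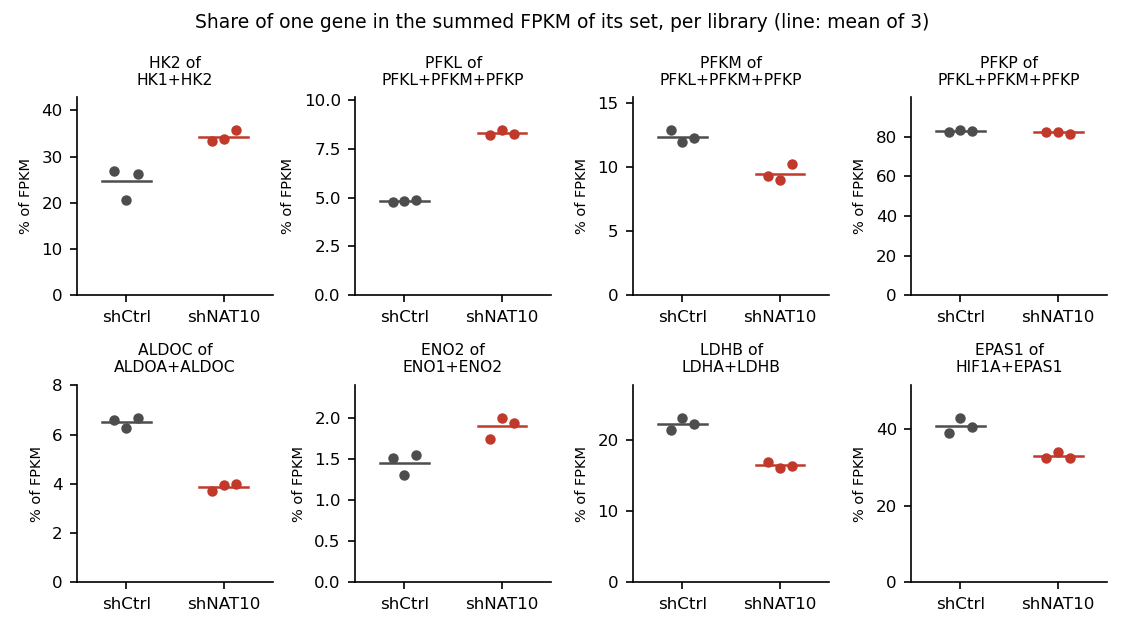
Share of 1 gene in the summed FPKM of its set, in percent, for each of the 3 shCtrl (grey) and 3 shNAT10 (red) libraries, with a line at the mean and axes from 0. The points of the groups are apart in 7 of the 8 panels, PFKP being the panel where they overlap.

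HIF transcription factors consist of an alpha subunit that oxygen controls and the constant partner ARNT. HIF1A was listed at 43.1, 29.6 and 39 FPKM in shCtrl and at 54.4, 51.4 and 56.8 FPKM in shNAT10. Every shNAT10 library was higher, the second shCtrl library was lowest, and the log2 fold change was 0.56 ± 0.14 (SE, adjusted p = 0.0166). Without the second shCtrl library it was 0.40 with an adjusted p of 0.0018, and the call was kept in 15 of the 17 alternatives. EPAS1, which encodes HIF-2 alpha, gave 27.6, 22.2 and 26.4 FPKM in shCtrl and 26.0, 26.4 and 27.2 FPKM in shNAT10. The groups overlapped (0.07, 95% interval -0.15 to 0.29, adjusted p = 0.572). ARNT ranged from 9.10 to 11.6 FPKM in shCtrl and from 13.1 to 13.3 FPKM in shNAT10 and was called higher at 0.32 ± 0.10 (SE, adjusted p = 0.0423), in 10 of the 17 alternatives.

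The sensors moved little. VHL, which recognises hydroxylated HIF alpha for degradation, was listed at 21.0, 20.1 and 21.8 FPKM in shCtrl and at 23.0, 24.9 and 25.4 FPKM in shNAT10. The groups were apart, but the log2 fold change was small at 0.22 ± 0.07 (SE, adjusted p = 0.0424) and 9 of the 17 alternatives kept the call. EGLN1, the main HIF prolyl hydroxylase, ranged from 15.4 to 17.4 FPKM in shCtrl and from 17.8 to 18.9 FPKM in shNAT10 and was not called (0.15, adjusted p = 0.158). EGLN3, a hydroxylase that HIF induces, was below the filter, at 0.243 to 0.298 FPKM in shCtrl and 0.437 to 0.488 FPKM in shNAT10. These levels rest on 12 to 25 reads per library.

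Among HIF targets that manage pH, CA9, the membrane carbonic anhydrase often used as a hypoxia marker, was listed at 2.35, 3.39 and 3.44 FPKM in shCtrl and at 2.77, 3.47 and 3.18 FPKM in shNAT10. The groups overlapped at 66 to 131 reads per library (0.05, 95% interval -0.35 to 0.45, adjusted p = 0.837), and 38.5% of its exon bases are covered by ARHGEF39 on the other strand. CA12 lay below the filter at 0.098 to 0.262 FPKM. BNIP3, a mitophagy receptor, gave 81.9, 91.4 and 90.6 FPKM in shCtrl and 77.0, 84.8 and 76.4 FPKM in shNAT10, overlapping groups (-0.15, 95% interval -0.33 to 0.03). Its relative BNIP3L was not called either (0.12, 95% interval -0.07 to 0.30).

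The 3 genes of collagen modification did not pass the test, at unadjusted p of 0.105, 0.129 and 0.412 in limma for P4HA1, P4HA2 and PLOD2. PLOD2, the lysyl hydroxylase that shapes collagen crosslinks, was listed at 379.1, 289.7 and 380.8 FPKM in shCtrl and at 369.7, 373.1 and 371.5 FPKM in shNAT10. The second shCtrl library alone was low (0.10, 95% interval -0.17 to 0.36, adjusted p = 0.514), and without it the difference was -0.03. P4HA1 and P4HA2, the collagen prolyl hydroxylase alpha subunits, gave -0.11 (95% interval -0.25 to 0.03) and 0.12 (95% interval -0.05 to 0.29). P4HA1 was called lower without the second shCtrl library (-0.14, adjusted p = 0.0347) and under the length and GC correction (-0.11, adjusted p = 0.0251).

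The remaining HIF targets split. DDIT4, also called REDD1, which restrains mTORC1 under stress, was listed at 160.4, 192.5 and 181.3 FPKM in shCtrl and at 232.5, 243.7 and 232.3 FPKM in shNAT10. All shNAT10 libraries were higher (0.41 ± 0.08, SE, adjusted p = 0.00703), though DDIT4-AS1 covers 41.2% of its exon bases on the other strand and the strand setting of the counting is not given in the sources used here. ERO1A, the oxidase that drives disulfide formation in the endoplasmic reticulum, ranged from 30.9 to 42.2 FPKM in shCtrl and from 55.1 to 61.0 FPKM in shNAT10 (0.64 ± 0.12, SE, adjusted p = 0.00602). NDRG1, a stress-induced gene linked to differentiation, rose by 0.27 ± 0.07 (SE, adjusted p = 0.018) from 9.16 to 9.79 FPKM to 11.1 to 11.8 FPKM.

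Genes of this group that fell were ANKRD37 and ANGPTL4. ANKRD37, a small ankyrin repeat gene, gave 2.48, 1.88 and 2.00 FPKM in shCtrl and 1.75, 1.03 and 1.18 FPKM in shNAT10. The groups did not overlap, but these levels rest on 29 to 68 reads per library, UFSP2 covers 35.2% of its exon bases on the other strand, and 8 of 16 alternatives kept the call (-0.67 ± 0.22, SE, adjusted p = 0.0467). ANGPTL4, a secreted inhibitor of lipoprotein lipase, ranged from 129.2 to 170.3 FPKM in shCtrl and from 96.6 to 108.0 FPKM in shNAT10 (-0.51 ± 0.11, SE, adjusted p = 0.01). ADM, the vasodilator peptide adrenomedullin, was not called (0.23, 95% interval -0.01 to 0.46, adjusted p = 0.105), while without the second shCtrl library it was 0.33 with an adjusted p of 0.00172. Quantile normalization, TPM scaling and the length and GC correction also called ADM higher, at 0.25, 0.34 and 0.43 (adjusted p = 0.014, 0.00722 and 8.16e-05).

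Other genes of the same pathways, 82 in number of which 70 were tested, gave 13 calls higher and 18 lower, where 20.8% and 21.2% of all tested genes were called. Of 11 tested neighbours of glycolysis, 8 were called lower, among them PGM2, a phosphopentomutase, at 10.7 FPKM in shCtrl and 5.87 FPKM in shNAT10 by the means (-0.85 ± 0.08, SE, adjusted p = 0.000309). Of 18 tested genes of the pentose phosphate pathway, glycogen and pyruvate entry, 4 were lower and 2 higher.

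Of 32 further HIF targets tested, 11 were called higher and 4 lower, beside the same 20.8% and 21.2% of all tested genes. Of 9 tested genes of HIF regulation and oxygen sensing, 2 were called lower. LOXL2, a lysyl oxidase that crosslinks collagen, ranged from 51.3 to 53.0 FPKM in shCtrl and from 23.9 to 25.1 FPKM in shNAT10 (-1.09 ± 0.06, SE, adjusted p = 5.96e-05), and RAB20, a small GTPase, fell by 0.78 ± 0.19 on the log2 scale (SE, adjusted p = 0.0155). TFRC, the transferrin receptor that imports iron, gave 140.1, 96.3 and 125.5 FPKM in shCtrl and 214.9, 213.5 and 229.8 FPKM in shNAT10. It was the largest called rise among the 70 tested genes (0.88 ± 0.13, SE, adjusted p = 0.00249), followed by ZNF395 at 0.82 ± 0.11. P4HB, the beta subunit of collagen prolyl hydroxylase, and PLOD1, a lysyl hydroxylase, rose by 0.55 ± 0.10 and 0.50 ± 0.07 (SE, adjusted p = 0.00463 and 0.00207).

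The acRIP lists placed 76 peaks on the 41 genes in shCtrl and 76 in shNAT10. A peak in the shCtrl list was held by 26 of the 39 tested genes, where 49.6% of all tested genes held one, and a peak in the shNAT10 list by 27, where 47.7% did. Both lists held a peak for 23 of the 39 genes, against 33.7% of all tested genes. More abundant transcripts carry peaks more often: of the 1149 genes with a mean of at least 50 FPKM, 68.4% had a shCtrl peak, and of the 19 members at that level 12 did. TPI1, ALDOA, LDHA, BNIP3 and PLOD2 had none in either list in spite of such levels, and neither did ALDOC, PFKM, CA9, CA12 and ANKRD37. With 1 pooled list per group there is no replicate check, and no difference between the lists was tested.

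By the median, enrichment on these genes was below that of the lists as a whole. The lists were not matched to these genes by transcript level, and the part of that level in the difference was not tested. The median fold enrichment of immunoprecipitated over input RNA was 28.3 for the shCtrl peaks of the 41 genes and 49.3 for the whole shCtrl list, and 21.8 and 45.2 in shNAT10. Of the 76 peaks in each list, 24 (31.6%) of shCtrl and 23 (30.3%) of shNAT10 shared at least 1 base with a peak of the other list, and 11 of each did so over at least 50% of both peaks. Overlap was not counted over all 16892 shCtrl and 15813 shNAT10 peaks. These shares therefore cannot be read as a trait of the genes described here. By their midpoints on the coding transcript with the longest coding sequence, 36 of the shCtrl peaks lay in the coding sequence, 23 in the 3′ UTR and 2 in the 5′ UTR, and 39, 21 and 2 of the shNAT10 peaks did. The remaining 15 and 14 midpoints lay outside that transcript.

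HK2 held the strongest peak of the set. Its shCtrl peak of 240 coding bases had a fold enrichment of 4610, which 0.2% of the shCtrl list reached, and in shNAT10 the peak that met it, by a single base, had a fold enrichment of 18.6. Peaks of 2520 and 2820 fold stood further along the transcript in shNAT10. PFKL carried 5 shCtrl and 3 shNAT10 peaks, of which 1 pair, in the coding sequence, shared over 50% of each and stood at 63.4 fold in shCtrl and 121 fold in shNAT10. PFKFB3 carried 3 peaks of 27.0 to 695 fold in shCtrl and 1 of 201 fold in shNAT10, none shared.

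PGK1, the gene that fell most, carried peaks in both lists. They stood at 1.95, 2.12 and 5.79 fold in shCtrl and at 22.0 and 2.77 fold in shNAT10. The 22.0-fold peak of 539 bases took in the whole 1.95-fold peak. PKM went from 3 peaks to 9, HK1 from 1 to 5 and SLC16A3 from 1 to 5, while NDRG1 went from 10 to 4 and PFKFB4 from 7 to 4. Of the 21 genes called in RNA-seq, 11 had more peaks in shCtrl and 4 had more in shNAT10, a count not made over all genes. EGLN3, at under 0.5 FPKM, carried 3 peaks of 48.7 to 104 fold in shNAT10 and none in shCtrl.

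Peaks that lie wholly in coding sequence can be read on the transcript. Some of those on HK2, PFKL and PFKFB3, which rose, are shown with the strand of the transcript, from GENCODE v29 on GRCh38. Coding peaks of other genes called higher are not shown. Capitals mark stretches of CNNCNNCNNCNN, 4 cytidines spaced by 2 other bases, letters searched on the transcript strand because ac4C has been described in CNN contexts. The HK2 peaks span chr2:74878915-74880497 in shCtrl and chr2:74887958-74889413 in shNAT10, plus strand, each across an intron. The PFKL pair spans chr21:44306719-44312141 in shCtrl and chr21:44306749-44312260 in shNAT10, plus strand, across introns. The PFKFB3 peak of 695 fold spans chr10:6215233-6216764 in shCtrl, plus strand.
HK2 peak, shCtrl: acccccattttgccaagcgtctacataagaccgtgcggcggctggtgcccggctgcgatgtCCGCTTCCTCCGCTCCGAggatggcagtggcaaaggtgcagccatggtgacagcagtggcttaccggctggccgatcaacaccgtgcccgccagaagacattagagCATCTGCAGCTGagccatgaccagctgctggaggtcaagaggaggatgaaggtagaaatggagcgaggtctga
HK2 peak, shNAT10: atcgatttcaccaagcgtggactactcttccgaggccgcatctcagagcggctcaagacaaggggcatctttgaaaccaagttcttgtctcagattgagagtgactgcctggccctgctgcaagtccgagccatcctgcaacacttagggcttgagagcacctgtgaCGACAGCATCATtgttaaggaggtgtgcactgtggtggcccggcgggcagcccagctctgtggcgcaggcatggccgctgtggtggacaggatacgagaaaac
PFKL peak, shCtrl: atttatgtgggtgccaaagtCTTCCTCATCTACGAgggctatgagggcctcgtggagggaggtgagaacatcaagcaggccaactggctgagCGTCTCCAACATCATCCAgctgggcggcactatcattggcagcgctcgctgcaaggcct
PFKL peak, shNAT10: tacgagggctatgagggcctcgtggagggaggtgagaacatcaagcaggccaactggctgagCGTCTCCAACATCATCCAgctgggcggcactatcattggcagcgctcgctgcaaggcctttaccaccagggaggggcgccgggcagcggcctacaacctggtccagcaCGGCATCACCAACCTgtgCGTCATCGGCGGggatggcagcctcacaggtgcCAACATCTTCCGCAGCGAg
PFKFB3 peak, shCtrl: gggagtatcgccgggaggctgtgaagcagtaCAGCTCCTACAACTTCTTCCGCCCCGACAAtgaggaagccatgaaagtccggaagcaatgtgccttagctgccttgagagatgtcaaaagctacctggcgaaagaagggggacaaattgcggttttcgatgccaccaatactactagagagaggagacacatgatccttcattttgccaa

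Overlapping matches of the letters numbered 4 in the HK2 peak of shCtrl and 1 in that of shNAT10. The PFKL pair held 5 in shCtrl and 9 in shNAT10, and the PFKFB3 peak held 7. Not shown were coding peaks of SLC2A1, with 5 in shCtrl and 8 in shNAT10, and of DDIT4, with 2 in shCtrl. Those of ERO1A and VHL in shCtrl and of HIF1A in both lists held none. A 5′ UTR peak of SLC16A3 in shNAT10 held 12. Over peaks of 100 to 300 bases that could be read whole, 18 of 41 (43.9%) on the genes described here held the letters in shCtrl and 22 of 35 (62.9%) in shNAT10. In the whole lists 48.9% of 8069 and 48.3% of 7646 such peaks did. The match is a description of the sequence and does not place ac4C.

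The core letters to which HIF binds, ACGTG or GCGTG on either strand, were searched in RefSeq promoters (GRCh38.p14) of 250 bases before to 50 bases after each start, overlapping matches counted as 1 stretch. Entries matched 38 of the 41 genes, with 65 promoters, and VHL, BNIP3L and NDRG1 were not matched. At least 1 promoter of 34 of the 38 genes (89.5%) held the letters, against 52.4% of 27305 genes in the table and 68.4% of genes with a promoter of at least 60% GC. A share by gene rises with the promoters per gene, which were more here. All 27305 genes had 35116 promoters, and the 13585 genes rich in GC had 16447. By promoter the share was 67.7% (95% Wilson interval 55.6 to 77.8) against 48.4% of all and 64.9% of those rich in GC. The interval treats promoters as independent and is too narrow where a gene supplies several, as HK1 and PFKM do with 7 each. In the 100 bases before the start alone, 23.1% of the 65 promoters held the letters and 24.1% of all promoters and 33.7% of those rich in GC did.

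The letters did not sort the genes by direction. They were found for 9 of 10 genes called higher, 9 of 9 called lower and 15 of 17 not called, and promoters with at least 3 stretches belonged to 3, 4 and 3 of these. These promoters of 4 genes are shown from 250 bases before a RefSeq start up to that start, or up to an exon base of the gene where one comes earlier, with the letters in capitals. The starts shown for PGK1, HK2 and PFKP lie inside the annotated gene, downstream of its first base. PGK1 fell and has 3 stretches in the part shown, at chrX:78103998-78104173, while HK2 and DDIT4 rose and have 4 and 3, at chr2:74834920-74835169 and chr10:72273674-72273919. PFKP was not called and has 3, at chr10:3104359-3104608. All lie on the plus strand.
PGK1 promoter: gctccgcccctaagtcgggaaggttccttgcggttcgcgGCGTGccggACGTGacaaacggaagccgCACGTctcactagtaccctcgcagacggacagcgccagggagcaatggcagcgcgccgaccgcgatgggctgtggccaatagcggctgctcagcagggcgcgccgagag
HK2 promoter: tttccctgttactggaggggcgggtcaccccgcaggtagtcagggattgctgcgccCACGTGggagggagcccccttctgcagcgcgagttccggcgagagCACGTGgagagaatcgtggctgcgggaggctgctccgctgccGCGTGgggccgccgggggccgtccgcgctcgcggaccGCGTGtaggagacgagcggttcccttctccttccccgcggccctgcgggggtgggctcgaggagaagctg
DDIT4 promoter: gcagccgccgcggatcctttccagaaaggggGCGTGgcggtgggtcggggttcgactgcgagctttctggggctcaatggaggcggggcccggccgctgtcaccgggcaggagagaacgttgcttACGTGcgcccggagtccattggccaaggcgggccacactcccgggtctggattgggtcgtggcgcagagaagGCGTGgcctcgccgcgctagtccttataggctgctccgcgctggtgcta
PFKP promoter: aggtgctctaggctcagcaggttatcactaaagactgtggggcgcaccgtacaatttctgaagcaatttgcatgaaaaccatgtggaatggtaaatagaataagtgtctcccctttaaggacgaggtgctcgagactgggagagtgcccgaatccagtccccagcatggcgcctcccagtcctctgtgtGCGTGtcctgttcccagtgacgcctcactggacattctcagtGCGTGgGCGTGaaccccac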

How the data were processed

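RNA-seq (3 libraries per group) and acRIP-seq of PANC-1 shCtrl and shNAT10 cells were analysed from the deposited tables. The submitters' processing notes name HISAT2 2, HTSeq 0.11.0 and DESeq2 1.22.2 on hg38. The authors deposited expression as FPKM, 1 column per library, counted per Ensembl gene. They deposited 1 pooled peak list per group, with a fold enrichment of immunoprecipitated over input RNA as a ratio and a p-value for each peak. The peak caller and the strand setting of the counting are not given in the sources used here.

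Genes with at least 1 FPKM in at least 3 libraries entered a linear model of log2(FPKM + 0.1) in limma 3.58.1 (R 4.3.3), its variance prior following mean level, and p-values were adjusted by Benjamini-Hochberg. Fold changes are on that scale and understate low genes. Genes were called at an adjusted p under 0.05. The FPKM steps gave whole reads, within 0.05 of a read, for 97.63% to 97.73% of values under 1000 reads, with the longest GENCODE v29 transcript as length, and these reads entered 1 alternative (voom). The main fit did not pair libraries by replicate number. Same-numbered libraries' deviations correlated at -0.043, 0.064 and 0.107, and the highest correlations with another number were 0.063, 0.059 and -0.034. Such values do not show whether the libraries were prepared in pairs. The fit was tested on simulated data. Counting error alone is covered by the Wilson intervals. Python 3.11.15, NumPy 2.4.6, pandas 2.3.3 and matplotlib 3.10.9 were used.

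The 41 genes and all lists were chosen with earlier results of these data known. Values in every library are given for NAT10, for genes called with a log2 fold change beyond 1, for the called gene with the largest change and the gene with the highest mean FPKM of each role, and for the genes of the shares. Beside their sister genes, PDK2, PDK3, PDK4 and ENO3 are also named. Other pathway genes are otherwise named where they were called without overlap and ranked among the 4 with the greatest rise or the 4 with the greatest fall. One of these genes and 1 peak sequence are not reported here. Alternatives were other pseudocounts, filters, scalings, a replicate block, voom, no trend, single libraries left out and, added after the data were seen, a length and GC correction.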

Additional observations from a re-analysis of the deposited data

How the results depend on the processing

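No reversed value belongs to a gene called in the report except LDHA, at 0.04 under quantile normalization. The cause was not tested for any of these changes. Quantile normalization also turned ALDOA (0.25), GAPDH (0.14), ENO1 (0.13) and PKM (0.17), TPM scaling turned ALDOA (0.10), PGAM1 (0.01) and PKM (0.07), and the length and GC correction turned ALDOA (0.10), GAPDH (0.04), PGAM1 (0.01), PKM (0.02) and EGLN1 (-0.02). Leaving out single libraries gave ranges that cross 0 for ALDOA, PKM, EPAS1, CA9 and PLOD2. These ran from -0.12 to 0.13, -0.09 to 0.05, -0.02 to 0.13, -0.12 to 0.14 and -0.03 to 0.16 in that order. With single libraries left out, 7 to 14 genes were called higher and 6 to 10 lower, 7 to 17 higher and 8 to 19 lower of the other pathway genes, and 1774 to 3303 higher and 1765 to 3318 lower over all genes. Shares counted as reads moved by 6.46 (PFKL), -3.71 (PFKM), -2.75 (PFKP), -2.11 (ALDOC) and -4.28 (LDHB) percentage points. Peaks in the upper 50% by fold enrichment left 13 genes in shCtrl, 17 in shNAT10 and 10 in both, and the 50% with the lowest p-values left 15 in both. A reciprocal overlap of 50% kept 11 peaks in each list, and the 100-base window held the letters in 23.1% of promoters. The replicate block called 9 genes higher and 7 lower and lost PFKM, LDHA, PDK1, ARNT and VHL. Depth limits EGLN3, CA12, CA9 and ANKRD37.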
